A study of Mus musculus with 25 samples.

Results

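Gene expression in the salivary gland was compared between 12 and 4 weeks of age in male C57BL/6.NOD-Aec1Aec2 mice, across all genes with a named probe set. The comparison rests on 10 of the 25 samples of the series, 5 mice labelled 12 weeks against 5 mice labelled 4 weeks, with 1 Affymetrix array per mouse. C57BL/6.NOD-Aec1Aec2 is a congenic strain, which carries the NOD regions Aec1 on chromosome 3 and Aec2 on chromosome 1 in a C57BL/6 background and develops a disease resembling Sjögren's syndrome, an autoimmune disease of the salivary and lacrimal glands. All 10 mice were males of this genotype and the labels name no treatment, so that the groups differ by age, with different mice at each age. Each sample joined submandibular, sublingual and parotid tissue without the salivary lymph nodes, so a level is that of a mixture of 3 glands and of all their cell types. C57BL/6J mice of the same ages were not analysed here, so that ageing of the gland and onset of disease cannot be told apart.

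The major salivary glands of the mouse keep developing after birth. Acini, the end pieces that make the primary saliva, bud and divide in a growing connective tissue of collagen, and ducts take up sodium and chloride from the saliva and add potassium and bicarbonate. In males the duct cells of the submandibular gland fill with granules at puberty, under androgens, and then release kallikreins and growth factors. The genes of these functions are described below by role: cell division, matrix, growth factors, ducts, acid organelles, secretion, cell contacts, metabolism and immunity.

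Across 18194 genes, 1029 (5.66%) rose and 247 (1.36%) fell between 4 and 12 weeks, 7.01% of all (limma over all 25 arrays, adjusted p under 0.05). Among the 11696 genes with an expressed probe set the shares were 8.63% and 1.77%. Genes of mitosis and collagen genes were among the decreases, and the division antigen gene Mki67 fell the most, by 3.32 on the log2 scale, to values below 3.27 in all 5 older mice, the median over all probe sets, above which a probe set counted as expressed. The largest increase was that of Atp4a, the catalytic chain of the proton and potassium pump known from the stomach, at 5.01 on the log2 scale, from 4-week values that lay under the expressed level in 3 of 5 mice. Of the called genes 405 rose and 72 fell by more than 2-fold, and in 879 of the increases and 197 of the decreases the 5 values of one age did not overlap those of the other, beside 12.5% of all genes with no overlap and a higher level and 21.1% with no overlap and a lower level. Leaving out 1 array moved the counts to between 444 and 2418 increases, without mouse 4 of 4 weeks and without mouse 3 of 20 weeks, and to between 150 and 599 decreases, without mouse 2 of 12 weeks and without mouse 3 of 20 weeks.

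The scale of the arrays differed between the ages. The upper quartile of all probe sets was 5.59 ± 0.15 at 4 weeks and 5.81 ± 0.092 at 12 weeks (SD, n = 5 each; difference 0.23 on the log2 scale, two-sided exact permutation test over the 10 arrays p = 0.0159, adjusted p = 0.0278 over 7 array measures). The median difference of the 11696 genes with an expressed probe set was 0.14. Low and high genes did not shift alike. Of the 6498 genes without an expressed probe set only 6.19% had a positive difference, with a median of -0.04, and 46.2% of them lay lower at 12 weeks with no overlap. Of the 3899 brightest genes 84.3% had a positive difference, with a median of 0.41. After quantile normalization, which gives all arrays the same distribution, the medians of these groups were 0.00021 and 0.05, and 641 genes (3.52%) were higher and 500 (2.75%) lower. The increases thus made up 80.6% of the calls as deposited and 56.2% after quantile normalization. No gene was called in opposite directions by these scalings, and 591 of the increases and 205 of the decreases were called under both.

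**Figure D1:**
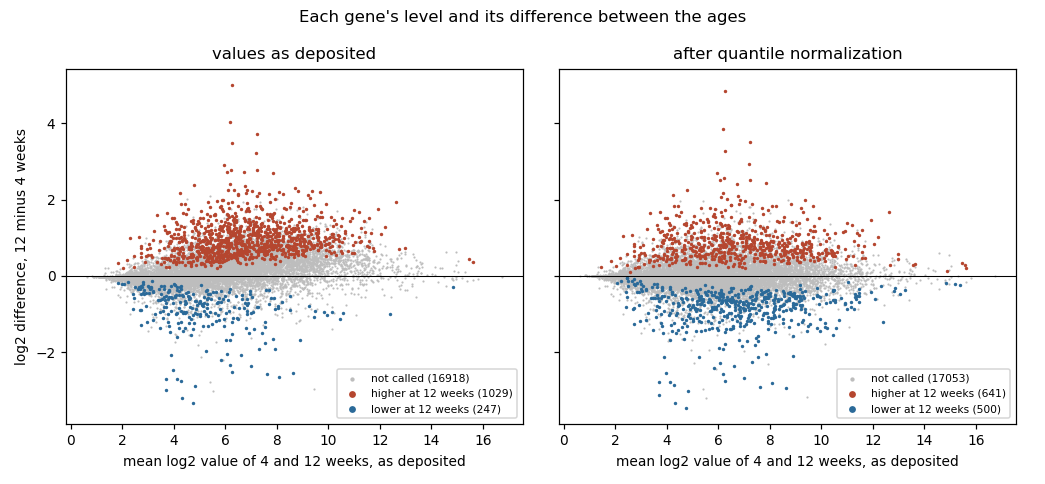
Log2 difference between 12 and 4 weeks (vertical axis) against the mean log2 value of both ages (horizontal axis) for each of 18194 genes, as deposited (left) and after quantile normalization (right), with called genes in red where higher and in blue where lower at 12 weeks. As deposited, the cloud lies just below 0 at the lowest levels and above it at high levels (median 0.41 in the brightest group), with 1029 genes higher and 247 lower. After quantile normalization it lies around 0, with 641 higher and 500 lower.

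Among the 10 arrays, mouse 4 of 4 weeks stood apart. Its upper quartile was 5.34, against 5.60 to 5.75 in the other 4-week mice, and its median correlation with its own age was 0.985, against 0.990 to 0.992. It had the lowest 4-week value in 802 of the 1029 genes that rose (77.9%), and in 62.3% of all expressed genes. Without it 444 genes (2.44%) rose, all of them among the 1029, and 189 (1.04%) fell, 172 of them among the 247, and the median difference of expressed genes was 0.08. Counts without this mouse are given below for many of the lists. Under each of 3 scalings and without each of the 10 arrays in turn, 277 increases (26.9%) and 121 decreases (49.0%) were called throughout. In the beta actin control probe sets the 3′ value exceeded the 5′ value by 2.37 ± 0.20 at 4 weeks and 2.91 ± 0.099 at 12 weeks (exact permutation test p = 0.00794, the smallest this design can give, adjusted p = 0.0278). In the Gapdh control probe sets the same measure was 1.13 ± 0.57 and 0.62 ± 0.14 (exact permutation test p = 0.119), a difference of the other sign. Mouse 3 of 20 weeks, whose array enters the spread shared by all ages, had 5.355 for beta actin and 3.866 for Gapdh. The other 20-week mice had 1.85 to 3.75 and 0.046 to 1.11. The median correlation of mouse 3 of 20 weeks with its own age was 0.887, against 0.9735 to 0.9875 in the others. The part of these measures in the results below was not tested. Uty and Kdm5d, from the Y chromosome, were at 5.65 and 4.60 at 4 weeks, and Xist was at 2.70, under the median of 3.27 over all probe sets, as the label male implies. These 3 genes were not called between the ages. Eif2s3y, also from the Y chromosome, rose by 1.31 although all mice were male (limma, adjusted p = 0.039). It was called neither after quantile normalization nor without mouse 4 of 4 weeks.

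Genes of cell division fell in part at 12 weeks. Of 34 measured genes of mitosis 16 fell and 0 rose, beside 1.36% of all genes, and of 28 genes of DNA synthesis (S phase) 6 fell and 0 rose. The median difference was -0.83 over the 20 expressed genes of mitosis and -0.32 over the 22 of S phase, beside 0.14 over all expressed genes. Over all measured members, expressed or not, it was -0.51 and -0.22, beside -0.03 over all genes. Mki67 encodes a protein of dividing cells used to stain them. It had log2 values of 5.97, 6.74, 6.51, 6.69 and 6.03 in the 4-week mice and of 3.09, 2.98, 3.24, 3.08 and 2.96 in the 12-week mice, and fell by 3.32 ± 0.30 on the log2 scale (SE, adjusted p = 9.04e-07). All 12-week values lay below that expressed level. Cdk1, the kinase that drives entry into mitosis, had values of 5.31, 6.66, 4.94, 6.63 and 5.94 at 4 weeks and of 2.44, 2.85, 2.49, 2.85 and 2.85 at 12 weeks (fell by 3.20 ± 0.23, adjusted p = 1.37e-08). Its partner cyclin B2 gene Ccnb2 lay between 4.53 and 5.43 at 4 weeks and between 2.32 and 2.36 at 12 weeks (fell by 2.70 ± 0.17, adjusted p = 7.41e-09), and has no probe set counted as expressed over all 25 arrays. In all 3 genes the groups were far apart, and the 12-week mice were close to each other.

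Pbk, a mitotic kinase gene, fell from 6.25 ± 0.52 to 3.36 ± 0.027 (SD, n = 5), by 2.88 on the log2 scale. Birc5, which encodes the survivin of the chromosomal passenger complex, fell by 2.75, and Ube2c, the ubiquitin-conjugating enzyme of the anaphase-promoting complex, by 2.69. In S phase Rrm2, the small subunit of ribonucleotide reductase, had 6.91, 7.10, 7.05, 7.14 and 6.41 at 4 weeks and 3.95, 4.72, 5.13, 4.98 and 4.84 at 12 weeks (fell by 2.20 ± 0.33, adjusted p = 0.000428). The replication helicase genes Mcm5 and Mcm6 fell by 2.05 and 1.49, the flap endonuclease gene Fen1 by 0.79 and the thymidine kinase gene Tk1 by 0.85, the last from a mean of 2.84 without an expressed probe set. The 12-week means of Rrm2, Mcm5, Mcm6 and Fen1 lay above the expressed level, and those of Ccnb2, Cdk1, Birc5, Ube2c and Mki67 below it. Without mouse 4 of 4 weeks 16 genes of mitosis and 4 of S phase fell, Mcm5 no longer among them (adjusted p = 0.0623), and after quantile normalization 17 and 8. For 13 genes of mitosis and 4 of S phase the call held under each scaling and without each of the 10 arrays. In a bulk sample, fewer cells of a type and less RNA per cell cannot be told apart.

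The promoters of the genes of mitosis are shown because their members moved together. The sequences are RefSeq windows of the GRCm38.p6 build, 250 bases before to 50 after the gene start, 5′ to 3′ on the gene's strand, and capitals mark the cell cycle genes homology region, TTTGAA on either strand.
Ccnb2 (chr9:70421505-70421804, minus strand): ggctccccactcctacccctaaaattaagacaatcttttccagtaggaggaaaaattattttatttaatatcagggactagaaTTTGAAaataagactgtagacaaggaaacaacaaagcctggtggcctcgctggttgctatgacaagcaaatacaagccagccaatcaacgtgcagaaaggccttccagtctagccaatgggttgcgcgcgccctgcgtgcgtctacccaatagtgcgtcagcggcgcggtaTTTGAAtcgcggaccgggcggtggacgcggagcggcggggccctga
Cdk1 (chr10:69352863-69353162, minus strand): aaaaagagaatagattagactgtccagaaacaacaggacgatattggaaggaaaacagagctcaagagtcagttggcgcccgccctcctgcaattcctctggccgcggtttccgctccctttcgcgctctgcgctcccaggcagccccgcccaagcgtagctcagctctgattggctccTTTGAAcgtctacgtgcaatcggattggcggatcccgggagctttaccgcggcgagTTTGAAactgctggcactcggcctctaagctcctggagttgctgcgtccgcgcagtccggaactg
The Ccnb2 window holds the motif 167 bases before the gene start and again 4 bases after it, and the Cdk1 window holds it 71 and 15 bases before the start. Promoters were found for 30 of the 34 genes of mitosis, and 26 of their 32 windows (81.2%) hold TTTGAA, against 13.4% of 18010 windows of tested genes and 17.9% of all 32851 windows. CCAAT, the box bound by NF-Y, was in 24 of the 32 (75.0%), against 37.4% of the windows of tested genes. The share with TTTGAA was 81.2% both in the windows of genes that fell and in those of genes that were not called, 13 of 16 in each. Distances are to the first base of a match, and a match gives the letters only, with no evidence of binding.

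Some genes of collagens and other matrix proteins fell. Of 42 measured collagen genes 12 fell and 0 rose, with a median difference of -0.78 over the 30 expressed ones and -0.20 over all 42. Of 31 genes of matrix glycoproteins and proteoglycans 6 fell and 0 rose, with a median of -0.28 over the 24 expressed ones and -0.15 over all 31. Col1a1 and Col1a2 encode the chains of collagen I, the main fibre of connective tissue. Col1a1 had 8.92, 9.26, 9.04, 8.63 and 8.60 at 4 weeks and 5.55, 6.67, 6.82, 6.22 and 6.42 at 12 weeks, and fell by 2.55 ± 0.24 on the log2 scale, 5.87-fold (SE, adjusted p = 1.18e-06). Col1a2 fell by 2.54 ± 0.33 and Col3a1, which encodes the single chain of collagen III, by 2.63 ± 0.26, from 9.41 ± 0.62 to 6.78 ± 0.26 (SD, n = 5). The lowest 4-week value of Col3a1, 8.37 in mouse 5, lay above the highest 12-week value of 7.16. Genes of collagen V, which is incorporated into collagen I fibres, fell by 1.56 for Col5a3, 0.98 for Col5a1 and 2.34 for Col5a2.

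The members of the glycoprotein and proteoglycan list that fell included genes of the basement membrane. Nid1 encodes nidogen, which links laminin to collagen IV, and had 8.48, 8.73, 8.76, 8.14 and 7.98 at 4 weeks and 6.09, 6.95, 7.08, 6.63 and 6.57 at 12 weeks (fell by 1.76 ± 0.23, adjusted p = 0.000129). Nid2 fell by 1.25, the laminin chain genes Lamb1 and Lama2 by 1.14 and 1.02, and Eln, the elastin gene of elastic fibres, by 1.22. Of 20 genes that process collagen only Lox, whose product crosslinks collagen and elastin, was called (fell by 0.94, adjusted p = 0.0473), and without mouse 4 of 4 weeks it was not (adjusted p = 0.0624). The matrix counts hardly depended on that mouse: 11 collagens and 6 glycoproteins and proteoglycans fell without it, and 14 and 8 after quantile normalization. Of the 6 measured endothelial genes 3 fell, namely the receptor genes Kdr (by 0.81, adjusted p = 0.00526) and Tie1 (by 0.46) and the junction gene Cdh5 (by 0.33). Pecam1, Emcn and Tek had differences of -0.29, -0.33 and -0.09 and were not called. Tie1, Cdh5 and Pecam1 had no expressed probe set. Cdh5 was not called without mouse 4 of 4 weeks (adjusted p = 0.134).

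**Figure D2:**
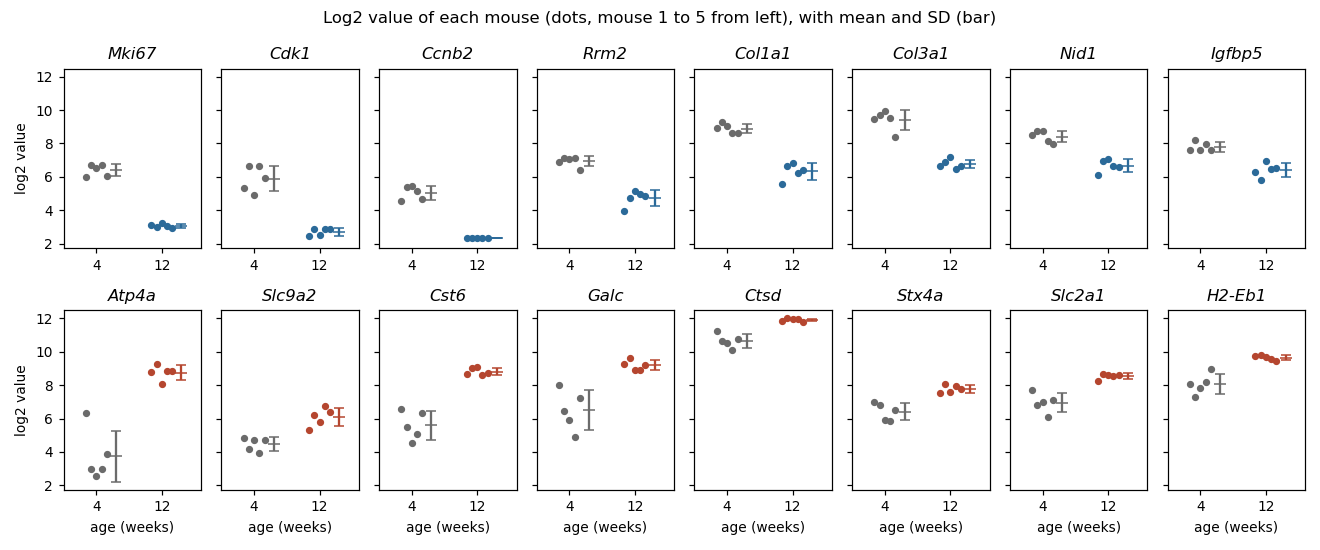
Log2 values of 16 genes in each mouse at 4 weeks (grey) and 12 weeks (blue for genes that fell, red for genes that rose), with dots in the order of mice 1 to 5 and a bar for the mean and SD of 5 mice. In all 16 genes the 12-week values lie on one side of the 4-week values without overlap, and in Atp4a mouse 1 of 4 weeks (6.32) lies far above the other 4-week mice (2.56 to 3.90).

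In the insulin-like growth factor axis, 4 of 16 genes fell and 1 rose. Igf1, the growth factor itself, had 5.24, 6.00, 5.80, 6.34 and 5.26 at 4 weeks and 4.21, 4.73, 5.17, 4.68 and 4.87 at 12 weeks (fell by 1.00 ± 0.23, adjusted p = 0.0104). The lowest 4-week value, 5.24, was close to the highest 12-week value, 5.17. The binding protein genes Igfbp5, Igfbp3 and Igfbp7 fell by 1.39, 1.20 and 0.94. Igfals, the acid-labile subunit that holds the factor in a complex of the blood, rose by 0.89, from between 6.36 and 6.75 to between 7.08 and 7.69 (adjusted p = 0.00295). Of 15 imprinted genes with a role in growth 3 fell, namely Ndn, which fell by 0.84, Peg3, which fell by 0.28 without an expressed probe set, and Cdkn1c, which fell by 2.47. Cdkn1c, an inhibitor of cyclin-dependent kinases, had 2.80, 7.74, 7.79, 4.97 and 2.80 at 4 weeks and 2.74 to 2.76 at 12 weeks, so that 3 of the 5 young mice carry the difference. The kinase gene Lrrk2, also without an expressed probe set, was high in the same 3 mice. It had 2.27, 6.77, 7.16, 7.48 and 2.29 at 4 weeks and 2.12 to 2.26 at 12 weeks (fell by 2.97 ± 0.77, adjusted p = 0.0209). Neither call held without mouse 4 of 4 weeks (adjusted p = 0.0631 and 0.0802).

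Smgc, the salivary product gene that shares the Muc19 locus and is known from immature submandibular and from sublingual acini, followed the same mice. It had 7.82, 12.66, 13.12, 12.33 and 8.69 at 4 weeks and 7.88, 7.86, 7.90, 8.04 and 8.15 at 12 weeks, and was not called (difference -2.96 ± 0.95, adjusted p = 0.061). Smgc is 1 of the 3 measured members of the sublingual list, so the list does not add a separate observation. The mean of the list lay between 10.9 and 12.9 at 4 weeks, with a mean of 12.0, and had a mean of 10.9 at 12 weeks. The other members, Dcpp1 and Dcpp3, had differences of -0.23 and -0.08 that were not called. How many cells of each kind the lobes held was not measured, and its part in these values was not tested.

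Genes of ion transport in the ducts rose in part. Of 23 measured genes 8 rose, beside 5.66% of all genes, and 0 fell, with a median difference of 0.80 over the 21 expressed ones and 0.71 over all 23. Atp4a had 6.32, 2.97, 2.56, 2.97 and 3.90 at 4 weeks and 8.76, 9.26, 8.07, 8.82 and 8.85 at 12 weeks, and rose by 5.01 ± 0.97 on the log2 scale (SE, adjusted p = 0.00354). The spread of the young mice was wide (SD 1.52), and that of the older mice narrow (SD 0.43). Slc9a2, a sodium and proton exchanger gene, had 4.81, 4.17, 4.71, 3.91 and 4.74 at 4 weeks and 5.33, 6.19, 5.80, 6.74 and 6.37 at 12 weeks (rose by 1.62 ± 0.25, adjusted p = 0.000587). Bsnd, which encodes the barttin subunit of chloride channels, rose by 1.58, the potassium channel genes Kcnj16 and Kcnq1 by 1.22 and 1.08. The increase of Kcnq1 was not called after quantile normalization (0.72, adjusted p = 0.107). Without mouse 4 of 4 weeks 4 genes of the list rose, namely Atp4a, Slc9a2, Bsnd and Kcnq1, and Kcnj16 was not called (adjusted p = 0.0532). Among 69 potassium channel genes 5 rose (7.25%) and 1 fell (1.45%), near the 5.66% and 1.36% of all genes. The median difference was -0.07 over the 28 expressed ones. Kcns3 rose by 1.70 and Kcne3 by 0.95. Kcna1, without an expressed probe set, fell by 0.46. Without mouse 4 of 4 weeks 3 rose and 1 fell, and after quantile normalization 3 rose and 3 fell.

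Genes of acid organelles rose in part. Of 22 measured genes of the vacuolar proton pump, which acidifies lysosomes and granules, 9 rose and 0 fell, with a median difference of 0.64 over 18 expressed ones and 0.59 over all 22. Of 29 lysosomal genes 5 rose and 0 fell, with a median of 0.46 over 28. Atp6v1e1, a stalk subunit of the pump, had 7.07, 6.75, 6.43, 5.87 and 7.47 at 4 weeks and 8.07, 8.44, 7.92, 8.16 and 7.95 at 12 weeks (rose by 1.39 ± 0.26, adjusted p = 0.00295). Atp6v0e, of the part within the membrane, rose by 1.36 and Atp6v1g1, Atp6v1d and Atp6v1h by 0.96, 0.60 and 0.32. The 3 probe sets of Atp6v1h ranged from -0.18 to 1.22. Ctsd encodes the aspartic protease cathepsin D and had 11.26, 10.67, 10.50, 10.08 and 10.77 at 4 weeks and 11.80 to 12.00 at 12 weeks (rose by 1.26 ± 0.28, adjusted p = 0.00845). Galc, which removes galactose from sphingolipids, rose by 2.69 ± 0.60, from 8.01, 6.45, 5.94, 4.88 and 7.21 to between 8.92 and 9.62. Hexa, a hexosaminidase chain, Lamp2, a protein of the lysosomal membrane, and Ctns, the cystine exporter, rose by 1.18, 1.06 and 0.84. In each gene of this paragraph mouse 4 was the lowest at 4 weeks except in Ctns, where mouse 2 was. Without it 4 pump genes and 4 lysosomal genes rose.

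Windows of a lysosomal and of a pump gene are shown with TCACGTG, part of the element bound by the factor TFEB, in capitals. The motif nearly reads the same on both strands, so that matches on the strands overlap and run to 8 letters.
Ctsd (chr7:142387778-142388077, minus strand): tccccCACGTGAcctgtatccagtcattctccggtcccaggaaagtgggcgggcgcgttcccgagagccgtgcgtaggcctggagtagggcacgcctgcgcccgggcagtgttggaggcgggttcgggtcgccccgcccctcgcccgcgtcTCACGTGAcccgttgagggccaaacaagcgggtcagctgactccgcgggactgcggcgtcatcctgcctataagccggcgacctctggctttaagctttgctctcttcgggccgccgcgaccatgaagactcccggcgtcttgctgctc
Atp6v0e (chr17:26676146-26676445, plus strand): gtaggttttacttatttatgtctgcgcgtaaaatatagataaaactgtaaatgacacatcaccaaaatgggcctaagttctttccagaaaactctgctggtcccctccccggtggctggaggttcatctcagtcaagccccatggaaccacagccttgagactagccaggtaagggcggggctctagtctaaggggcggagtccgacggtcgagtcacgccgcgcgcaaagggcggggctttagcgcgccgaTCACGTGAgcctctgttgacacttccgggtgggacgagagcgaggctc
It was in 10 of 31 windows of 25 lysosomal genes (32.3%) and in 4 of 17 windows of 16 pump genes (23.5%), against 4.96% of the windows of tested genes and 3.77% of all windows. Of the 6 windows of pump genes that rose 1 held it, and of the 6 windows of the 5 lysosomal genes that rose 1 did, that of Ctsd shown here.

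Some genes of secretion and of cell contacts rose. Of 24 genes that bring granules to release 6 rose and 0 fell, with a median difference of 0.39 over 20 expressed ones and 0.21 over all 24. Stx4a, a syntaxin of the cell membrane, had 6.99, 6.81, 5.92, 5.86 and 6.50 at 4 weeks and 7.53, 8.08, 7.61, 7.93 and 7.77 at 12 weeks (rose by 1.37 ± 0.24, adjusted p = 0.00192). Stx3, a syntaxin of the apical membrane, rose by 1.30, the vesicle proteins' genes Vamp2 and Vamp8 by 1.22 and 1.15 and the syntaxin-binding Stxbp2 by 0.85. Of these, Stx4a and Stx3 were called without mouse 4 of 4 weeks, and no other gene of the list. After quantile normalization 6 genes of the list rose and 1 fell, with a median of 0.12 over the expressed ones. Of 23 genes of calcium, water and chloride transport in acini 3 rose (13.0%) and 0 fell, with a median of 0.15 over 19 expressed ones. After quantile normalization 1 rose and 3 fell, with a median of -0.08, and without mouse 4 of 4 weeks 1 rose and 0 fell. Among these genes Itpr2, the calcium channel of internal stores through which acinar cells respond to nerves, rose by 1.36 (adjusted p = 0.0109).

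Desmosomes and hemidesmosomes are the contacts that hold epithelial cells together and to the basement membrane. Of 20 of their genes 6 rose (30.0%, beside 5.66% of all genes) and 0 fell, with a median of 0.74 over 19 expressed ones. Dst, which anchors keratin at hemidesmosomes, had 6.06, 5.64, 4.71, 3.89 and 3.90 at 4 weeks and 7.51 to 7.75 at 12 weeks (rose by 2.78 ± 0.52, adjusted p = 0.00271). Pkp4 rose by 1.86, Lad1 by 1.68, Perp by 0.74 and Pkp2 by 0.59. Without mouse 4 of 4 weeks only Dst and Lad1 were called. Of 30 tight junction genes 3 rose and 1 fell, beside 5.66% and 1.36% of all genes, with Cldn7 up by 1.46, Jam2 up by 1.40 and Cgn up by 1.18. The median difference of the tight junction list was 0.35 over 21 expressed ones and -0.03 over all 30. The gene that fell, Cldn5 of endothelial junctions, fell by 0.19 without an expressed probe set. Only Cgn was called without mouse 4 of 4 weeks. After quantile normalization 3 tight junction genes rose and 3 fell, with a median of 0.095 over the expressed ones. Among 7 myoepithelial genes only Cnn1, a contractile protein gene, was called. It rose by 1.91 (adjusted p = 0.0308, and 0.108 without that mouse). Myh11, Krt14, Acta2 and Krt5 had differences of 1.54, 1.17, 0.47 and 0.45 that were not called. Trp63 and Oxtr, at 0.01 and -0.05, were not called either.

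**Figure D3:**
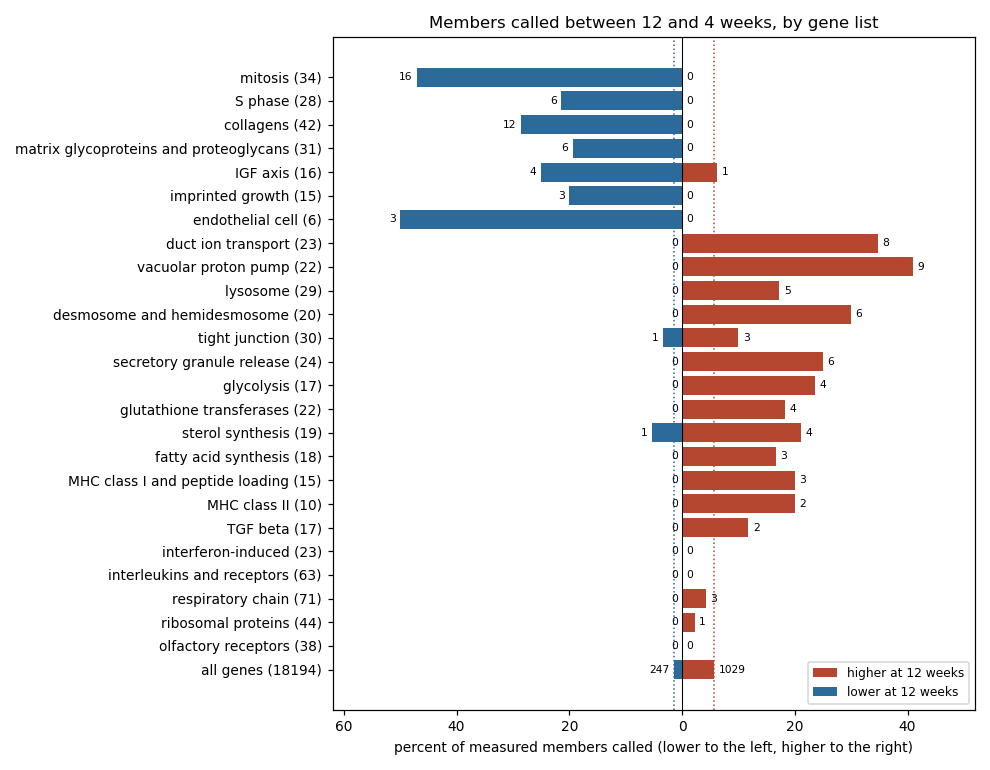
Percent of the measured members of each list (number in brackets) that were lower (blue, to the left) or higher (red, to the right) at 12 weeks, with the number of members at the bars and dotted lines at the shares over all genes (1.36% lower, 5.66% higher). Mitosis has 16 lower of 34, collagens 12 of 42, the vacuolar proton pump 9 higher of 22 and duct ion transport 8 of 23, while interferon-induced genes, interleukins and olfactory receptors have 0.

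Of 19 measured kallikreins 10 had an expressed probe set, and 2 rose (10.5%) and 1 fell (5.26%), beside 5.66% and 1.36% of all genes. Klk1 and Egf lay near the top of the scale, where differences may be compressed. Klk1, the tissue kallikrein, lay between 14.86 and 15.09 at 4 weeks and between 14.66 and 14.72 at 12 weeks and fell by 0.29 ± 0.059 on the log2 scale (adjusted p = 0.00463). Its 3 expressed probe sets ranged from -0.50 to 0.12. Klk1b16 and Klk1b5 rose by 0.36 and 0.45, and neither was called without mouse 4 of 4 weeks (adjusted p = 0.0608 and 0.145). The kallikrein genes are near copies of each other, so that their probe sets may share signal. Egf, the growth factor of the granular ducts, had a difference of 0.21 that was not called. Of 5 parotid products 0 were called by limma, and 0 had an unadjusted p under 0.05. The largest difference was that of Prpmp5, at -1.24 (adjusted p = 0.72), and their mean lay between 9.84 and 14.4 at 4 weeks and between 9.66 and 14.1 at 12 weeks, with 1 low mouse in each group.

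Genes of metabolism rose in part. Of 17 glycolytic genes 4 rose and 0 fell, with a median of 0.59. Slc2a1, the glucose carrier GLUT1, had 7.69, 6.82, 6.99, 6.11 and 7.12 at 4 weeks and 8.22, 8.68, 8.59, 8.52 and 8.60 at 12 weeks (rose by 1.58 ± 0.31, adjusted p = 0.00377). Slc16a3, a lactate carrier, rose by 1.46, Pfkm, a phosphofructokinase, by 1.57 and Aldoa, an aldolase, by 0.88. Slc2a1 and Slc16a3 were called without mouse 4 of 4 weeks too, and the other 2 were not (adjusted p = 0.0923 and 0.0917). Of 22 glutathione transferases 4 rose, with Gsto1 up by 1.75 and Gsta4 up by 2.08, and only Gsto1 was called without that mouse. The lipid lists depended on scaling and on that mouse: 4 of 19 sterol genes rose as deposited, 1 after quantile normalization and 0 without the mouse, and 3 of 18 fatty acid synthesis genes rose as deposited, 0 after quantile normalization and 2 without the mouse. Among these, the sterol desaturase gene Sc5d rose by 1.26 (adjusted p = 0.0896 without the mouse), and its 3 probe sets ranged from -0.02 to 2.55, while the acetate-activating Acss2 rose by 0.91 and the lipid regulator Srebf1 by 1.15. Stard4, a sterol carrier, fell by 1.43 (adjusted p = 0.000105) and Acot1, an acyl-CoA thioesterase, fell by 1.66 (adjusted p = 0.000477), and both were called under each of the 40 alternatives.

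Markers of lymphocytes did not rise. Of 8 T cell, 6 B cell and 4 plasma cell genes 0 were called in either direction by limma, and 0, 0 and 1 of them had an unadjusted p under 0.05. Of 23 interferon-induced genes 0 were called and 3 had an unadjusted p under 0.05, with a median difference of 0.05 over 21 expressed ones. The closest to the threshold was Ifih1, a sensor of viral RNA, at 0.65 (adjusted p = 0.0522). The mean of the B cell list was 2.65, 2.71, 3.26, 3.95 and 3.58 in the 4-week mice and 2.59 to 2.76 in the 12-week mice, so the young mice 3, 4 and 5 held the highest values. Glycam1, a product of lymph node vessels, was high in the same mice, with 4.14, 4.27, 9.11, 9.62 and 8.07 at 4 weeks and 3.77 to 4.19 at 12 weeks, and was not called (difference -3.02 ± 1.06, adjusted p = 0.0889). The means of the T cell, B cell and plasma cell lists were 2.92, 3.23 and 4.26 at 4 weeks and 2.73, 2.65 and 3.96 at 12 weeks. The part of lymph node tissue in these values was not tested.

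Some genes of antigen presentation rose. Of 10 class II genes 2 rose, and 1 without mouse 4 of 4 weeks, with a median difference of 1.25 over the 7 expressed ones and 0.20 over all 10, of which 5 had a positive difference. H2-Eb1, a class II beta chain, had 8.06, 7.27, 7.86, 8.20 and 8.98 at 4 weeks and 9.73, 9.81, 9.67, 9.54 and 9.43 at 12 weeks (rose by 1.56 ± 0.37, adjusted p = 0.0134), without overlap between the ages. Cd74, the invariant chain, rose by 1.31, and H2-Ab1 and H2-Aa had differences of 1.44 and 1.25 that were not called (adjusted p = 0.0561 and 0.0715). After quantile normalization none of the 10 was called, with differences of 1.18 for H2-Eb1 and 0.95 for Cd74. Of 15 genes of class I and peptide loading 3 rose, namely B2m by 1.10, Psme1 by 1.06 and H2-K1 by 0.91, and 0 without mouse 4 of 4 weeks. H2-Q2, a class I gene outside that list with close copies in its region, rose by 2.72 ± 0.42, from between 4.84 and 6.17 to between 7.73 and 8.36 (adjusted p = 0.000649). Of 10 macrophage genes only Cd14 was called (rose by 1.32, adjusted p = 0.0456), and neither after quantile normalization (adjusted p = 0.0626) nor without mouse 4 (adjusted p = 0.12). The mean of the macrophage list was 6.07 to 6.79 at 4 weeks and 6.83 to 7.33 at 12 weeks, without overlap. Taken singly, 12.5% of all genes and 34.3% of the 3899 brightest lay higher at 12 weeks without overlap. The median difference of the 10 macrophage genes was 0.51 as deposited and 0.25 after quantile normalization. Over all expressed genes it was 0.14 and -0.0055. The part of the macrophage list in the class II values was not tested.

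Of 32 chemokines 2 rose (6.25%, beside 5.66% of all genes) and 1 fell. Cxcl16 rose by 1.28 and Cxcl17, a mucosal chemokine, by 1.12, and the neutrophil chemokine Cxcl1 fell by 0.93, and none of them was called without mouse 4 of 4 weeks. Of 26 complement genes 1 rose (3.85%, under the 5.66% of all genes) and 0 fell. It was Cd59a, an inhibitor of the membrane attack complex, which rose by 2.15 ± 0.50 (adjusted p = 0.0111). The increase of Cd59a was called without mouse 4 of 4 weeks too (1.81, adjusted p = 0.0436). Of 17 genes of the TGF beta list 2 rose (11.8%, beside 5.66% of all genes) and 0 fell as deposited. Tgfb3 and Tgfb1, growth factor genes with a role in repair and tolerance, rose by 1.83 and 1.19 as deposited. They were called neither after quantile normalization (adjusted p = 0.0569 and 0.0867) nor without mouse 4. Of 63 interleukin and receptor genes 0 were called by limma and 2 had an unadjusted p under 0.05. Of the lists of organelles, 3 of 71 genes of the respiratory chain and 1 of 44 ribosomal proteins rose, both under the 5.66% of all genes. Without mouse 4 of 4 weeks 0 of either list rose. The respiratory chain had a median difference of 0.40 over 69 expressed genes, and of 0.08 after quantile normalization. Of its 71 genes 29 had an unadjusted p under 0.05 by limma, beside 3773 of all 18194 genes. The ribosomal proteins had a median of 0.03 over 40 expressed genes, and 5 of the 44 had such a p. Of 38 olfactory receptors 0 were called and 1 had an unadjusted p under 0.05.

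**Figure D4:**
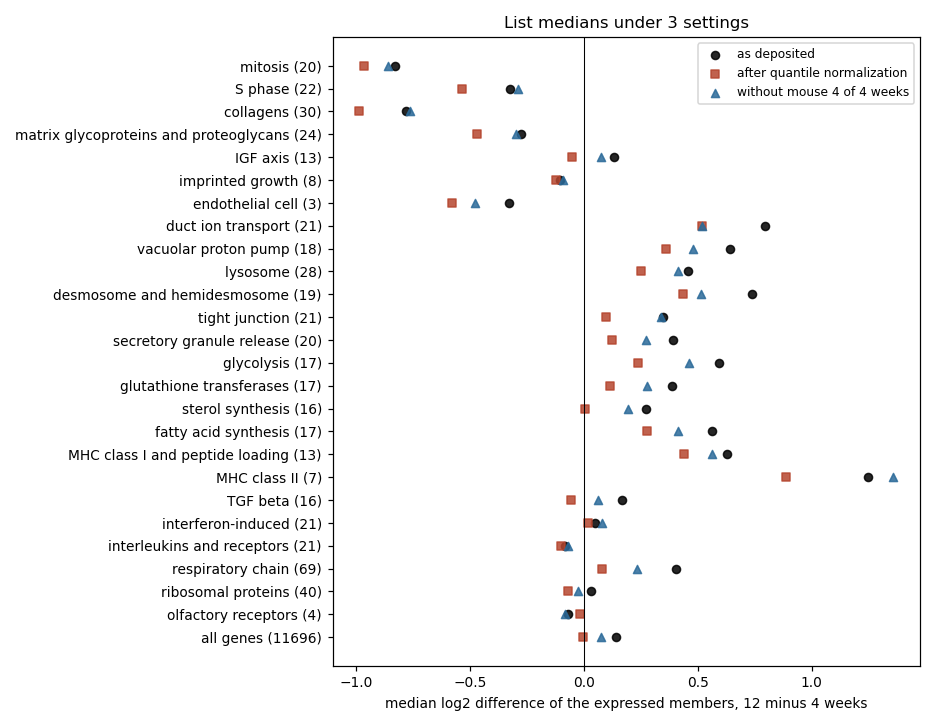
Median log2 difference between 12 and 4 weeks over the expressed members of each list (number in brackets) as deposited (black circles), after quantile normalization (red squares) and without mouse 4 of 4 weeks (blue triangles). Mitosis and collagens lie below -0.7 in all 3 settings (-0.83 and -0.78 as deposited), duct ion transport goes from 0.80 to 0.52 in both others, and the medians of TGF beta and ribosomal proteins lie on either side of 0.

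Other genes with large increases had no list in common. Cst6, the cysteine protease inhibitor cystatin E/M, had 6.58, 5.48, 4.51, 5.10 and 6.31 at 4 weeks and 8.65, 9.04, 9.06, 8.62 and 8.72 at 12 weeks (rose by 3.22 ± 0.41, adjusted p = 6.43e-05). Ptgds, a synthase of prostaglandin D2, had 4.10, 4.79, 4.72, 4.42 and 4.46 at 4 weeks and 7.45, 7.95, 6.36, 7.84 and 7.48 at 12 weeks (rose by 2.92 ± 0.65, adjusted p = 0.00919). In Ptgds the young mice were close to each other and the spread was at 12 weeks. Pcp4l1 rose by 3.72, the sulfotransferase gene Sult1c1 by 3.49, the carrier gene Slc16a6 by 2.78 and Amhr2, the receptor gene of anti-Müllerian hormone, by 2.72. Both expressed probe sets of Amhr2 are of the kind that can bind other transcripts as well. Of these 6 genes, all but Pcp4l1 (adjusted p = 0.0575) were called without mouse 4 of 4 weeks.

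Few genes were called between 12 weeks and the neighbouring ages. The 12-week arrays enter the comparisons with 8, 16 and 20 weeks too, so that these share samples with the comparison above, and their values are given side by side only. Between 8 and 12 weeks 1 gene of 18194 rose (0.0055%) and 0 fell (limma, 703 at an unadjusted p under 0.05). Between 12 and 16 weeks 0 rose and 1 fell (0.0055%, 1395 at an unadjusted p under 0.05). Between 12 and 20 weeks 22 rose (0.121%) and 129 fell (0.709%), and 28 and 58 without mouse 3 of 20 weeks. Of the 1029 genes that rose from 4 to 12 weeks 863 had their highest mean of the 5 ages at 12 weeks, and of the 247 that fell 102 had their lowest there, which the choice of genes by these arrays favours. The gene that rose from 8 to 12 weeks was Spon2, a matrix protein gene without an expressed probe set over all ages, at 2.77 at 8 weeks and 3.37 ± 0.17 at 12 weeks. Its 2 probe sets differed by -0.03 and 1.12 between 4 and 12 weeks. The gene that fell from 12 to 16 weeks was Tnfrsf19, a receptor of the tumour necrosis factor family, at 7.32 and 6.00, with 8.06 at 4 weeks. Both were chosen after their values were seen.

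Mki67 had a mean of 6.39 at 4 weeks and of 3.41, 3.07, 3.81 and 3.50 at 8, 12, 16 and 20 weeks. Col3a1 had 9.41 and then 7.16, 6.78, 6.33 and 6.83, and Igfbp5 had 7.80 and then 6.86, 6.41, 6.38 and 6.74. Atp4a had 3.75 and then 8.20, 8.75, 8.49 and 8.14. In these 4 genes the means of all later ages lay on the same side of the 4-week mean. Dst went from 4.84 to 6.94, 7.62, 7.11 and 6.24, and Slc16a3 from 4.00 to 4.75, 5.46, 4.54 and 4.10. Slc16a3 fell again between 12 and 20 weeks by 1.36 (adjusted p = 0.0199), while the differences of Dst, Stx4a and Slc9a2 between these ages, -1.38, -0.92 and -0.91, were not called (adjusted p = 0.195, 0.0723 and 0.0848).

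**Figure D5:**
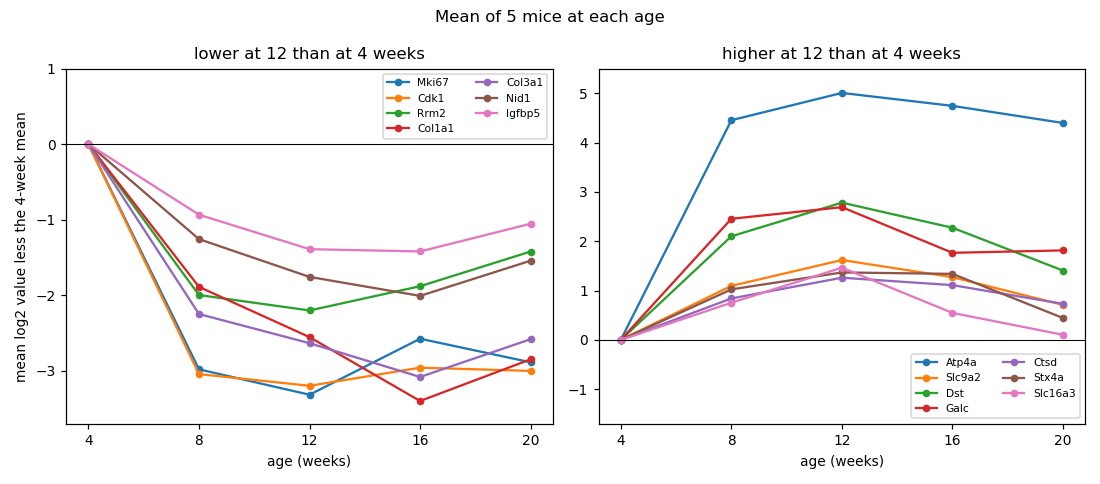
Mean log2 value of 5 mice at each of the 5 ages from 4 to 20 weeks, less the 4-week mean, for 7 genes that fell (left) and 7 genes that rose (right) between 4 and 12 weeks. The genes that fell are below 0 at every later age (Mki67 at 3.41 at 8 weeks and 3.07 at 12 weeks), and the 7 genes that rose have their highest mean at 12 weeks, with Slc16a3 back at 4.10 at 20 weeks.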

How the data were processed

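RNA of 25 glands was measured on Affymetrix mouse expression arrays. The authors deposited log2 values for 45101 probe sets, made with GCRMA per the methods, while the submitters' processing notes name RMA, so the exact summary is unsure. Such values compress low signals. Values were used as deposited. Of 35890 annotated probe sets, the 34958 with 1 gene symbol were joined to 18194 genes; 932 with several symbols and 9211 not listed were left out. A gene's value averages those of its probe sets that count as expressed, with a mean over arrays above 3.27 (the median over all probe sets), and the whole of them if it has no such probe set. Arrays have no read depth, and 5 mice per age limit the precision.

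All 25 arrays were fitted without covariate in limma 3.58.1 (R 4.3.3), with two-sided contrasts and Benjamini-Hochberg adjustment over all genes; called, rose and fell mean an adjusted p under 0.05. The mice of an age came from several litters, not given per mouse, so p-values measure the spread between these mice. On simulated data the fit called 63 of 100 genes changed by 1 on the log2 scale and 88 of 100 changed by 2. Of its 161 calls there 10 were false. The simulated arrays had no shift of scale and no outlying mouse, so the simulation does not cover these features of the data. Replicate numbers did not pair mice (deviations of same-numbered mice correlated between -0.25 and 0.20). Members and the 64 gene lists were chosen with earlier results of these data known; lists are described by counts and medians without a test. The text draws its genes from the 10 largest increases and decreases without overlap and from up to 5 members per list by adjusted p. Cell type, reference and sex-linked genes could all be named, and only some of them are. Clones and predicted genes are not named, and genes chosen after their values were seen are marked as such. Alternatives covered scaling, probe sets, arrays and fits; figures were drawn with matplotlib 3.10.9 in Python 3.11.15.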

Additional observations from a re-analysis of the deposited data

Results flagged for a closer look

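In groups of 5 mice a value was singled out where its gap to the nearest other mouse exceeded 0.71 of the range of the group, which chance gives in about 1 of 20 groups. At 4 weeks mouse 4 had a median correlation of 0.985 with its age (others 0.990 to 0.992), Srebf1 at 5.40 (others 7.10 to 7.77) and Gsta4 at 4.71 (others 6.26 to 6.70). It was also the mouse that stood apart in 1024 of the 1614 expressed genes singled out in this way at 4 weeks (63.4%). Mouse 1 had Kcns3 at 4.33 (others 5.20 to 5.33) and Ctns at 5.67 (others 5.17 to 5.31), and mouse 3 had Igfbp3 at 7.48 (others 6.61 to 6.80).

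At 12 weeks mouse 2 had Hexa at 10.3 (others 10.1 to 10.2), Jam2 at 7.94 (others 7.54 to 7.65) and Srebf1 at 8.33 (others 8.04 to 8.07). Mouse 3 had Cd59a at 8.78 (others 9.30 to 9.51) while Cldn5 was at 1.73 in mouse 2 (others 1.75), and mouse 4 had Lamb1 at 4.99 (others 5.41 to 5.54). The 3′ less 5′ value of the transferrin receptor control was lowest in mouse 2 of both ages, at 0.782 at 4 weeks (others 0.862 to 0.893) and 0.681 at 12 weeks (others 0.822 to 0.876).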

How the results depend on the processing

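No gene named in the text that was called, as deposited or in an alternative, had the opposite sign there, except E2f5, which was 0.52 as deposited and -1.29 with the brightest probe set alone, one of its probe sets that differ in sign. As deposited 1029 genes rose and 247 fell at 12 weeks. Scaling moved this to 641 and 500 (quantile normalization), 712 and 492 (arrays centered on the median of expressed genes) and 564 and 467 (upper quartile as covariate). The fit gave 1948 and 520 with only the 2 ages, 3727 and 6253 with array weights, and 204 and 83 with a B-statistic above 1.5. Chosen after seeing the data, leaving out the 3 arrays of low upper quartile (mouse 4 of 4 weeks, mouse 2 of 16 weeks, mouse 3 of 20 weeks) gave 1982 and 967, with quantile normalization 1002 and 904. Only the 2 ages gave 1258 and 1061 with quantile normalization and 2296 and 925 without mouse 4 of 4 weeks. The cause of these moves was not tested. Leaving out 1 array gave 444 to 2418 higher and 150 to 599 lower: 444 and 189 without mouse 4 and 650 and 160 without mouse 3 of 4 weeks, 463 and 150 without mouse 2, 591 and 162 without mouse 4 and 671 and 169 without mouse 5 of 12 weeks, and 2418 and 599 without mouse 3 of 20 weeks. The replicate block gave 953 and 230; same-numbered mice do not deviate together. The shift of the upper quartile lay between 0.165 and 0.267 without 1 array, that of the Gapdh 3′ less 5′ value between -0.679 (without mouse 1 of 4 weeks, exact permutation p = 0.0317) and -0.380.

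For 12 against 8 weeks, 1 gene rose and 0 fell; 3 rose with quantile normalization, 0 with median centering or only expressed genes, 2 rose and 1 fell with the upper quartile covariate, 801 and 225 with array weights, 9 rose without the 3 arrays and 2 with quantile normalization added, and 1 to 3 rose without 1 array (3 without mouse 5 of 8 weeks or mouse 1 of 12 weeks). For 16 against 12 weeks, 0 rose and 1 fell; 0 fell with quantile normalization, 1 rose and 2 fell with median centering, 1 rose with the parotid covariate, 54 and 186 with array weights, 6 and 27 without the 3 arrays, 4 and 11 with quantile normalization added, and 0 to 1 rose and 1 to 10 fell without 1 array (10 without mouse 1 of 12 weeks). For 20 against 12 weeks, 22 rose and 129 fell; the counts were 88 and 213 (quantile), 95 higher (median centering), 174 and 250 (upper quartile covariate), 206 lower (only expressed genes), 848 and 1727 (array weights), 12 and 79 (trend and robust prior), 84 lower (replicate block), 95 and 401 (without the 3 arrays), 147 and 280 (with quantile normalization added), and 3 to 51 higher and 22 to 315 lower without 1 array (3 and 22 without mouse 2 of 12 weeks, 51 without mouse 5 and 315 without mouse 1 of 20 weeks). Probe sets whose signal is near background bound how far low genes can be seen to fall.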

Other observations

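In both of the following families the share that rose was near the 5.66% of all genes. Of 344 solute carrier genes 22 rose (6.40%) and 11 fell (3.20%), and 16 and 7 without mouse 4 of 4 weeks, with a median of 0.14 over the 205 expressed ones, the same as over all expressed genes. Slc41a2, a magnesium carrier, rose by 2.13 ± 0.30 on the log2 scale (SE, adjusted p = 0.000181), from 7.80, 5.87, 6.33, 6.08 and 7.05 to 8.26, 9.08, 8.44, 9.04 and 8.97, and Slc22a18 rose by 0.87. Of 59 Rab GTPases 4 rose (6.78%) and 0 fell, and 2 rose without that mouse. Rab35 rose by 1.10 (adjusted p = 0.00127) and Rab15 by 1.21 (adjusted p = 0.00463), both of them also after quantile normalization and without mouse 4 of 4 weeks.

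Of 9 reference genes only B2m was called, and none without that mouse. Gapdh had a difference of 0.53 and Actb of -0.55, with SEs of 0.44 and 0.73, and the 5 probe sets of Actb ranged from -1.17 to 1.00. Of the called genes 544 had more than 1 probe set in use, and in 446 of these all had the sign of the gene. In 3 genes, Ankrd11, E2f5 and Scp2, chosen after their values were seen, a probe set rose while another fell. In E2f5 they differed by 1.53 and -1.29 (adjusted p = 0.00696 and 0.0401).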
